A study of Mus musculus with 28 samples.

Results

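The comparison described here is the passage of normal mouse thymocytes from the DN2/3 to the DN4 stage, measured by RNA sequencing in 8 of the 28 libraries of the series. The members are the 4 libraries titled wild type DN4 and the 4 titled wild type DN2/3, with libraries of the same replicate number taken as pairs, and all genes they express: 13371 of the 24421 gene symbols in the count table passed a filter on low counts, and the other 11050 were not tested. By the design text the wild-type mice are C57BL/6. They carry neither the Lmo2 transgene nor a deletion of Ldb1, the alleles of the other genotypes. Age, sex and the antibodies of the sort are not given in the labels, and the labels do not say whether each replicate is another animal; p-values here reflect only how far these libraries differ among themselves. The labels also name the cells CD4 T cells, while DN2/3 and DN4 are names of double-negative thymocytes, which have neither CD4 nor CD8 on their surface.

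Early thymocytes pass through successive double-negative stages that are told apart by surface CD44, Kit and CD25, the last encoded by Il2ra. At DN2 and DN3 the cells depend on Notch and interleukin 7 signals, lose the capacity to make other blood lineages and rearrange the T-cell receptor beta locus. A productive beta chain pairs with the pre-T alpha chain, encoded by Ptcra, and with CD3 chains to form the pre-TCR. Its signal at the beta-selection checkpoint lets cells survive, divide rapidly and move on to DN4, from which they become double-positive cells with CD4 and CD8.

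All levels below are CPM, a gene's counts scaled to a fixed library size after TMM normalisation, and values of single libraries are listed in the order of replicates 1 to 4. A log2 fold is that of DN4 over DN2/3 from a paired edgeR quasi-likelihood model. A gene is called higher or lower at an adjusted p below 0.05, and every gene said to rise or fall passed it. The libraries held 56.0 to 106.9 M counts. DN2/3 replicate 1 stood apart from the other DN2/3 libraries, with a chi-square per degree of freedom of 88.4 to 118 against them and 28.5 to 45.5 among the others. Without the replicate 1 pair, 4733 genes were higher and 4967 lower.

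The markers that define the stages are given first. Il2ra (chr2:11642807-11693193, mm10) had 1359.9, 1621, 1594 and 1419 CPM in DN2/3 and 30.5, 56.2, 43.6 and 30.6 CPM in DN4. Each DN4 library was far below every DN2/3 library, and the fall was 38.4-fold (log2 fold -5.26, SE 0.12, adjusted p = 3.65e-10). Cd44, a marker of the DN2 stage, had 5.65, 6.31, 6.13 and 6.14 CPM in DN2/3 and 0.625, 1.28, 0.963 and 0.815 CPM in DN4, and Kit, the stem cell factor receptor, had 84.6, 86.8, 79.7 and 69.4 CPM in DN2/3 and 16.9, 26.8, 22.1 and 21.6 CPM in DN4. Both fell without overlap between the stages (log2 fold -2.75, SE 0.18 for Cd44 and log2 fold -1.88, SE 0.10 for Kit). These libraries are bulk samples, so fewer cells of a type and less RNA per cell cannot be told apart in any value below.

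Over all genes the change was broad. In DN4, 4591 genes were higher (34.3% of those tested) and 4722 were lower (35.3%), with 9019 of the 9313 called genes changed the same way in all 4 pairs and 7497 without overlap between the stages. These shares are the background for every count of called members below. Changes over 2-fold were fewer and leaned downward, with 675 genes higher (5.05%) and 1945 lower (14.5%). Beyond 8-fold, 36 genes were higher and 360 lower. The lean was steepest among weakly expressed genes: in the lowest of 3 equal groups by mean level, up to 9.75 CPM, 6.80% were over 2-fold higher and 29.0% over 2-fold lower, in the middle group the shares were 3.59% and 9.89%, and in the highest group, from 56.5 CPM up, both shares were 4.76%. No gene went from under 0.1 CPM in all DN2/3 libraries to at least 1 CPM in all DN4 libraries, and 19 genes did the reverse. The balance depended on the scaling: with library totals alone in place of TMM, 3342 genes were higher and 5947 lower, and the median over all genes shifted by -0.17 on the log2 scale.

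**Figure D1:**
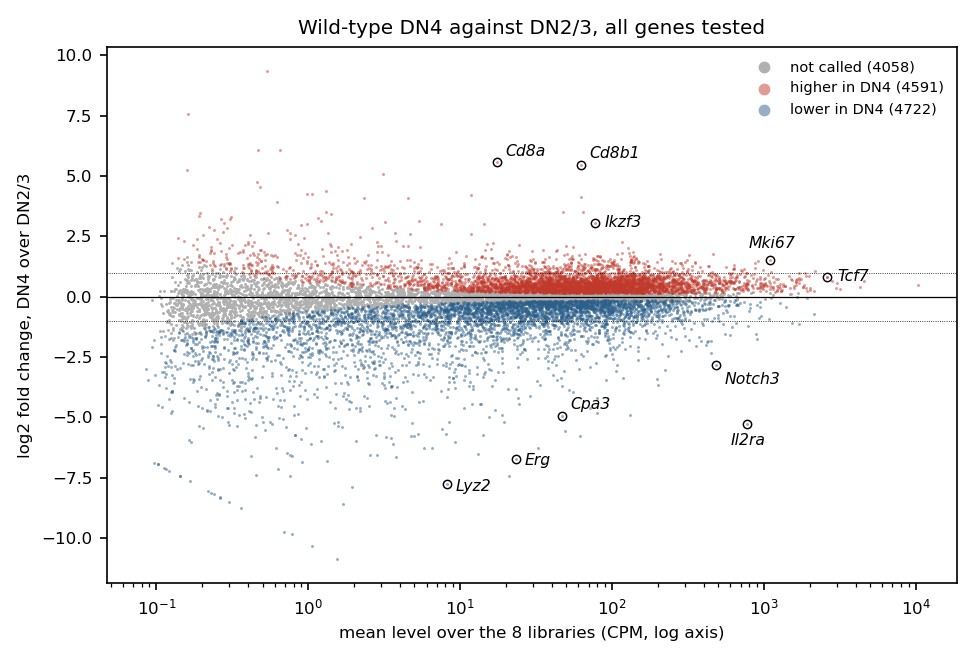
Log2 fold change of DN4 over DN2/3 against the mean level over the 8 wild-type libraries (CPM, log axis), 1 point per tested gene, coloured by call, with dotted lines at 2-fold. Falls reach farther than rises among genes of low and middle level, and the 10 circled genes are described in the text. The slanted rows of points at the lower left are genes with few or no counts in 1 stage, whose fitted folds are not bounds.

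Predicted or unnamed symbols and receptor segments were left out of the ranking by size. Among the others with at least 5 CPM in the higher stage and no overlap, the CD8 genes rose most. Cd8a (chr6:71373427-71379173), the alpha chain of the coreceptor, had 1.26, 0.464, 0.601 and 0.531 CPM in DN2/3 and 58.4, 19.98, 27.5 and 30.5 CPM in DN4, and rose 48.2-fold (log2 fold 5.59, SE 0.11, adjusted p = 4.89e-11). Cd8b1 (chr6:71322788-71337494), the beta chain, had 4.14, 2.32, 2.47 and 2.24 CPM in DN2/3 and 158, 102, 99.9 and 128 CPM in DN4, and rose 44.4-fold (log2 fold 5.47, SE 0.10, adjusted p = 4.49e-11). The stages did not overlap for either gene, and replicate 1 was the highest library in both stages for both. Cd4, the other coreceptor gene, had 1.32, 0.977, 0.85 and 0.744 CPM in DN2/3 and 12.2, 4.13, 4.96 and 4.45 CPM in DN4, again with replicate 1 highest in both stages. It rose 6.15-fold and its highest DN4 library stayed below the lowest DN4 library of Cd8a (log2 fold 2.62, SE 0.19). This low level goes against the label that names the cells CD4 T cells. Per kb of exon Cd8b1 had 1.88 CPM per kb in DN2/3 and 82.1 CPM per kb in DN4, against 0.241 CPM per kb in DN2/3 and 1.59 CPM per kb in DN4 for Cd4.

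Other genes named for the size of their rise follow. Ikzf3, the Ikaros family factor Aiolos, had 21.3, 14.5, 15.1 and 15.2 CPM in DN2/3 and 158, 119, 143 and 126 CPM in DN4 and rose 8.32-fold (log2 fold 3.06, SE 0.07). Cd2, an adhesion receptor of T cells, rose 18.5-fold from 2.33, 0.894, 0.998 and 0.744 CPM to 35.8, 18.9, 20.1 and 14.3 CPM. In both genes the lowest DN4 library was several times the highest DN2/3 library. In the same way Il2rb, the interleukin 2 receptor beta chain, went from 0.496 to 8.5 CPM on average, the synaptotagmin Syt13 from 10.4 to 119 CPM, the GTPase Gimap4 from 0.636 to 5.81 CPM, and the nonclassical class I gene H2-Q2 from 7.86 to 87.8 CPM. The LIM-domain gene Pdlim4 rose 34.1-fold, from a mean below 1 CPM. Arsi, an arylsulfatase gene, and the pseudogene Bambi-ps1 rose 8.19-fold and 8.14-fold.

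**Figure D2:**
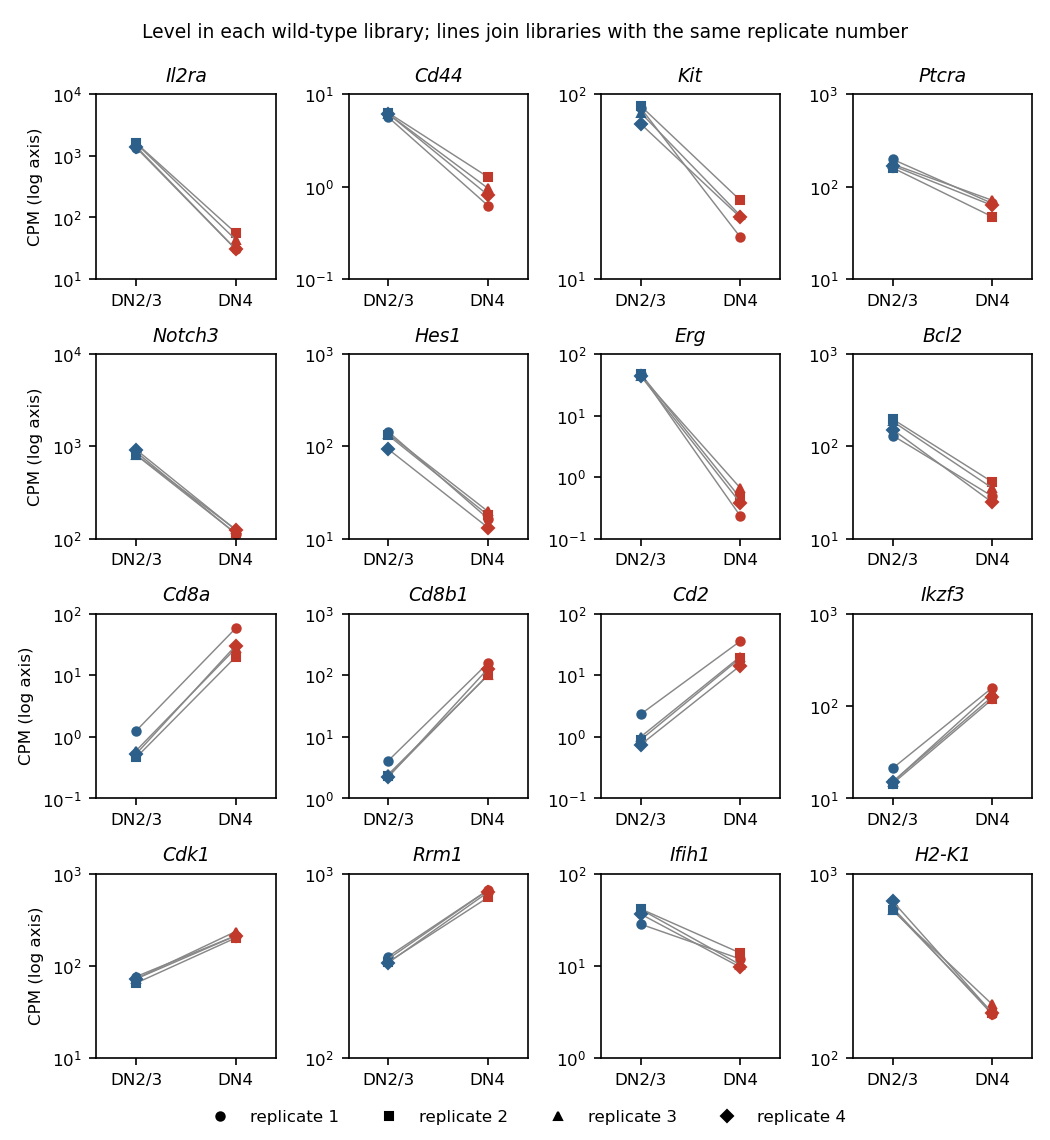
Level (CPM, log axis) of 16 genes in each wild-type library, DN2/3 at the left and DN4 at the right of each panel, with lines joining libraries of the same replicate number. All 4 lines of a panel run the same way in each of the 16 genes. Axis ranges differ between panels.

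Regulators of stem and progenitor cells fell almost without exception. Of 17 tested members of the list 16 fell, 14 of them over 2-fold, none rose, and their median log2 fold was -3.47, against -0.03 over all genes. Erg (chr16:95359169-95586593), an Ets factor of hematopoietic stem cells, had 47.9, 48.1, 44.5 and 44.6 CPM in DN2/3 and 0.238, 0.464, 0.674 and 0.388 CPM in DN4 (log2 fold -6.73, SE 0.18, adjusted p = 4.62e-10). Its 4 DN2/3 libraries lay close together, and every DN4 library was under 1 CPM. Nfe2, a leucine zipper factor of the megakaryocyte and erythroid lineages, had 35, 34.2, 39.9 and 41.1 CPM in DN2/3 and 0.953, 1.31, 1.2 and 0.66 CPM in DN4, a fall of 36.8-fold. Spi1, which encodes PU.1, fell from 3.61, 2.73, 2.68 and 3.2 CPM to 0.0298, 0.116, 0.0642 and 0.0776 CPM.

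The basic helix-loop-helix genes Lyl1 and Tal1, both T-cell leukemia oncogenes, fell too: Lyl1 had 5.97, 4.97, 6.09 and 7.44 CPM in DN2/3 and 0.0595, 0.435, 0.321 and 0.414 CPM in DN4 (log2 fold -4.34, SE 0.32), and Tal1 went from a mean of 1.25 to 0.0374 CPM. Hhex, a homeobox gene that Lmo2 can raise in thymocytes, had 2.6, 3.26, 3.48 and 3.7 CPM in DN2/3 and 0, 0.087, 0.257 and 0 CPM in DN4, with 2 DN4 libraries at no count (log2 fold -5.40, SE 0.57). Cd34, the stem cell surface antigen, is named after its values were seen: it had 2.68, 3.44, 3.12 and 3.12 CPM in DN2/3 and no count in any DN4 library, at least 284-fold lower against a floor of 3 counts over the DN4 group. Small counts were mostly even, and if a fragment counts as 2 the bound would be lower. With Cd34 set at that bound it was still the lowest of the list (-8.15), so the median of -3.47 could not change. Runx2 and Mycn, at -3.12 and -3.43, and Hoxa9, at -3.47, were among the other falls. The member that did not pass was Gfi1b. Lmo2 itself was close to silent, with 0.411, 0.199, 0.295 and 0.177 CPM in DN2/3 and 0, 0.174, 0.0642 and 0.0776 CPM in DN4. Its fall (log2 fold -1.78, SE 0.72, adjusted p = 0.0445) rests on 86 counts in DN2/3 and 22 in DN4 and was no longer called without replicate 1 (-1.11), 3 (-1.69) or 4 (-2.03). Ldb1, the cofactor of Lmo2, stayed high and fell modestly, with 552, 454, 493 and 529.7 CPM in DN2/3 and 365, 340.3, 384 and 366 CPM in DN4 (log2 fold -0.48, SE 0.06).

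Notch receptors and their targets fell. Of 18 tested genes of the pathway 12 fell and 2 rose, with a median log2 fold of -0.77. Notch3 (chr17:32120820-32166852), itself a Notch target in thymocytes, had 869, 807, 812 and 921 CPM in DN2/3 and 114, 114, 126 and 125 CPM in DN4 (log2 fold -2.83, SE 0.06, adjusted p = 7.82e-11), and Notch1, the receptor that drives T-lineage entry, had 2348, 1895, 2014 and 2079 CPM in DN2/3 and 949, 964, 1032 and 963 CPM in DN4 (log2 fold -1.09, SE 0.07). Per kb Notch1 had 146 CPM per kb in DN2/3 and 68.7 CPM per kb in DN4 and Notch3 had 105 CPM per kb in DN2/3 and 14.8 CPM per kb in DN4, so the gap between the receptors widened. Among the target genes, the repressor Hes1 had 144, 132, 136 and 93.2 CPM in DN2/3 and 16.6, 18, 19.8 and 13.2 CPM in DN4 (log2 fold -2.90, SE 0.07), the ubiquitin ligase Dtx1 had 144, 115, 138 and 148 CPM in DN2/3 and 18.9, 16, 28.7 and 18.7 CPM in DN4 (log2 fold -2.76, SE 0.11), and Lfng, a glycosyltransferase that modifies Notch, fell from 46.9 to 7.75 CPM. No library of 1 stage reached the range of the other in these genes. The 2 that rose were the pseudokinase gene Trib2 (log2 fold 1.27, SE 0.08) and the zinc finger gene Hivep3 (log2 fold 0.47, SE 0.07). The nuclear effector gene Rbpj did not pass, and neither did Nrarp, Adam10 and Numb.

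The pre-TCR and its signalling genes split. Of 27 tested, 9 rose and 15 fell, and the list's median was -0.28. Ptcra had 198, 160.0, 175 and 169 CPM in DN2/3 and 66, 47.3, 71.2 and 62.7 CPM in DN4 (log2 fold -1.52, SE 0.08, adjusted p = 1.30e-08), and Cd3g, a CD3 chain that the pre-TCR also uses, had 1323, 1344, 1428 and 1216 CPM in DN2/3 and 448, 459, 461 and 429.9 CPM in DN4 (log2 fold -1.56, SE 0.06). Both fell in every pair without overlap. The tyrosine kinases that act on CD3 and zeta chains moved apart: Syk fell from 133, 125, 115 and 121 CPM to 64.6, 59, 61.1 and 48.2 CPM (log2 fold -1.09, SE 0.07), while Zap70 rose from 79.4, 54.4, 58.7 and 52.4 CPM to 181, 146, 162 and 130.5 CPM (log2 fold 1.35, SE 0.07). Plcg1, the phospholipase below them, fell (log2 fold -0.91, SE 0.06). The coreceptors Cd5 (log2 fold 0.99, SE 0.08) and Cd6 (log2 fold 1.22, SE 0.08), which temper receptor signals, rose together with Cd2.

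Genes of V(D)J recombination were mixed, with 6 of 13 tested lower, 3 higher and 4 not passed, and their summed level in DN4 was 1.03 times that in DN2/3. Rag2 had 61.7, 83.9, 95.7 and 103 CPM in DN2/3 and 37, 41.3, 42.3 and 55.4 CPM in DN4 (log2 fold -0.96, SE 0.08, adjusted p = 4.40e-07) and Dntt, the terminal transferase that adds bases at junctions, had 2362, 2705, 2754 and 2764 CPM in DN2/3 and 1606, 1616, 1624 and 1644 CPM in DN4 (log2 fold -0.70, SE 0.06). Both stages remained high, and for both genes the ranges did not touch. Rag1 fell least, with 601, 723, 789 and 829 CPM in DN2/3 and 551, 564, 562 and 632 CPM in DN4 (log2 fold -0.34, SE 0.07), and its ranges overlapped through DN2/3 replicate 1. Among the joining enzymes Dclre1c, which encodes the nuclease Artemis, fell (log2 fold -0.80, SE 0.09), and Prkdc, the kinase that activates it, fell with overlap (log2 fold -0.35, SE 0.07). The genes that rose were Xrcc5 (log2 fold 0.39, SE 0.06), which encodes Ku80, and the chromatin proteins Hmgb1 (log2 fold 0.90, SE 0.06) and Hmgb2 (log2 fold 1.49, SE 0.06), whose roles are not limited to recombination.

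T-lineage transcription factors did not move as a block. Of 30 tested, 13 rose and 11 fell, with a median of 0.12 that turned to -0.04 with library totals alone. Tcf7, the TCF-1 gene, had 1896, 1707, 1914 and 1995 CPM in DN2/3 and 3247, 3181, 3479 and 3428 CPM in DN4 (log2 fold 0.83, SE 0.06, adjusted p = 1.45e-07), all DN4 libraries above all DN2/3 libraries. Id3, an inhibitor of E proteins that pre-TCR signals induce, had 41, 34, 35.7 and 35.9 CPM in DN2/3 and 77.7, 70.1, 80.8 and 75.4 CPM in DN4 (log2 fold 1.05, SE 0.06). Bcl11b, required for T commitment, fell from 652, 689, 598 and 734 CPM to 454, 495, 423 and 439.5 CPM (log2 fold -0.56, SE 0.06), and Runx1 (log2 fold -0.88, SE 0.06), Myb (log2 fold -1.22, SE 0.06), Patz1 (log2 fold -0.96, SE 0.06) and Zeb2 (log2 fold -2.90, SE 0.12) fell with it. Gata3 had 128, 110.1, 123 and 122 CPM in DN2/3 and 135, 147, 136 and 120.3 CPM in DN4 and did not pass the test (log2 fold 0.15, SE 0.07, adjusted p = 0.0828). Its call turned with the setting: it passed without replicate 1 (log2 fold 0.18, adjusted p = 0.0405), and with library totals alone its sign was reversed (-0.013). The CD4-lineage factor Zbtb7b had 2 counts over the DN2/3 libraries and 0.506, 0.29, 0.16 and 0.285 CPM in DN4, so its fitted fold is not given.

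Cytokine receptors and their Jak-Stat partners fell for the most part: 19 of 27 tested fell and 6 rose, with a median of -0.61. Il7r, the interleukin 7 receptor, had 115, 167, 134 and 126 CPM in DN2/3 and 32.5, 58.3, 42.7 and 44.2 CPM in DN4 (log2 fold -1.63, SE 0.07, adjusted p = 3.90e-09). The feedback inhibitors that Stat5 induces fell farther: Socs2 had 5.78, 7.57, 13.9 and 9.94 CPM in DN2/3 and 0.0298, 0.116, 0.417 and 0.155 CPM in DN4 (log2 fold -5.78, SE 0.25), Cish went from a mean of 20.3 to 0.869 CPM, and Socs3, a target of Stat3, had 67.1, 74.6, 77.3 and 76.3 CPM in DN2/3 and 5.49, 9.5, 9.26 and 7.63 CPM in DN4 (log2 fold -3.24, SE 0.10). In all 3 the highest DN4 library was under the lowest DN2/3 library. Il17rb, a receptor of the interleukin 17 family, fell from 256, 303, 312 and 313 CPM to 71.8, 105, 95 and 95.7 CPM. In contrast Il9r (log2 fold 1.97, SE 0.10), Il21r (log2 fold 0.43, SE 0.06), Pim2 (log2 fold 1.04, SE 0.09) and Il2rb (log2 fold 4.08, SE 0.21) rose.

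Survival genes of the Bcl2 family moved in both directions, and 5 of 13 tested members rose and 5 fell, shares near those of all genes. Bcl2 (chr1:106538178-106714274), the classical anti-apoptotic member and a target of interleukin 7, had 131, 198, 187 and 152 CPM in DN2/3 and 28.9, 41.3, 35.5 and 24.8 CPM in DN4, a fall of 5.15-fold (log2 fold -2.36, SE 0.08, adjusted p = 7.87e-10). Bcl2l1, which encodes the anti-apoptotic protein Bcl-xL, had 26.3, 21.8, 26.2 and 24.4 CPM in DN2/3 and 53.7, 36.3, 43.6 and 38.7 CPM in DN4, a rise of 1.73-fold (log2 fold 0.79, SE 0.08, adjusted p = 2.37e-06). Per kb the order reversed, with Bcl2 at 18.2 CPM per kb in DN2/3 and 3.56 CPM per kb in DN4 and Bcl2l1 at 5.38 CPM per kb in DN2/3 and 9.39 CPM per kb in DN4. The anti-apoptotic Bcl2l2 fell (log2 fold -1.35, SE 0.08), and Mcl1 fell slightly (log2 fold -0.52, SE 0.07). The pro-apoptotic genes were mixed, with Bid (log2 fold 1.35, SE 0.07) and Bax (log2 fold 0.52, SE 0.07) higher and Bmf (log2 fold -1.77, SE 0.09) lower. Bcl2a1d, a member reported downstream of the pre-TCR, was too low to test, with 0.235, 0.0331, 0.068 and 0.106 CPM in DN2/3 and 0.268, 0.029, 0.0321 and 0.0517 CPM in DN4. It shares 54.0% of its read-length stretches with other genes, so its count is uncertain.

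Cell-cycle genes rose, and did so most uniformly for mitosis and DNA replication. All 32 tested genes of DNA replication rose, 21 of them over 2-fold, with a median of 1.09, and 31 of 32 mitotic genes rose, 30 of them over 2-fold, with a median of 1.51. For these genes promoter sequences (RefSeq, GRCm38.p6, from 250 bases before to 50 after the start) are shown because members moved together. TTTGAA, the CHR element through which cell-cycle repressor complexes act, stood on either strand in 19 of 26 mitotic genes with a promoter entry (73.1%) and in 14.0% of the 10042 tested genes with one. GCGGGAA, a form of the E2F element, stood in 11 of 27 replication genes (40.7%) and in 9.70% of all, and in 3 of 14 genes of the G1 list (21.4%). TGGGAA, letters of the Rbpj element, stood in 3 of 15 Notch pathway genes (20%) and in 26.6% of all. A match is a description of these letters, not a measured site. Sequences run 5′ to 3′ along the gene, with matches in capitals (CHR in Cdk1 and Mki67, E2F in Rrm1, there as its reverse complement).
Cdk1 (chr10:69352863-69353162, - strand): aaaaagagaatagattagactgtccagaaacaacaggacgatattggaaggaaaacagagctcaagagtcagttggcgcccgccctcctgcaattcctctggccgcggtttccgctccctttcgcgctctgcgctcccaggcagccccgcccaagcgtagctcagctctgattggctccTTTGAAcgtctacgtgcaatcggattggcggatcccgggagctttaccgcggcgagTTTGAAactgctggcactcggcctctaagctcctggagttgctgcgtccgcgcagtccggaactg
Mki67 (chr7:135716330-135716629, - strand): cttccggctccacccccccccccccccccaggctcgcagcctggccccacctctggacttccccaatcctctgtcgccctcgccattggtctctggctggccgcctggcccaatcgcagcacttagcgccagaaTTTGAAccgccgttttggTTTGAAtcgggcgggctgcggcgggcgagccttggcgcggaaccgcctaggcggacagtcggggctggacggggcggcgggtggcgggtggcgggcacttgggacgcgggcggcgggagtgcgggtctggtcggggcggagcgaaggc
Rrm1 (chr7:102441445-102441744, + strand): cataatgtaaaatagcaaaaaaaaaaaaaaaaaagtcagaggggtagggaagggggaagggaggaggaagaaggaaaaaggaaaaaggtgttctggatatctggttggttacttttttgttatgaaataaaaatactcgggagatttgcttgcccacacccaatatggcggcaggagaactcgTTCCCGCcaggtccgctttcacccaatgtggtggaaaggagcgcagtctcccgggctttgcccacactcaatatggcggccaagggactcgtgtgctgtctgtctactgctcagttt

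Cdk1, the kinase of mitotic entry, had 76.6, 65.2, 72.7 and 72.4 CPM in DN2/3 and 213, 201, 236 and 212 CPM in DN4 (log2 fold 1.59, SE 0.06, adjusted p = 2.29e-09), and Mki67, the proliferation antigen Ki-67, had 562, 505, 579 and 622 CPM in DN2/3 and 1484, 1513, 1674 and 1762 CPM in DN4, a rise of 2.84-fold. Rrm1 and Rrm2, the subunits of ribonucleotide reductase, rose 2.32-fold and 3.44-fold, Rrm1 from 355, 332, 345 and 329 CPM to 814, 742, 813 and 792 CPM. Replicates of a stage were tight in these genes, and the stages were far apart. The mitotic cyclins Ccna2 (log2 fold 1.77, SE 0.06) and Ccnb1 (log2 fold 1.77, SE 0.06), the spindle protein gene Tpx2 (log2 fold 1.58, SE 0.06), survivin, encoded by Birc5 (log2 fold 1.69, SE 0.06), and the replication factors Mcm10 (log2 fold 1.52, SE 0.06) and Cdc45 (log2 fold 1.29, SE 0.06) moved by like amounts.

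In the G1 machinery 15 of 20 tested genes rose and 3 fell, and the fallers included paralogs of genes that rose. Ccnd2, a D cyclin, had 286, 294, 281 and 316 CPM in DN2/3 and 84.4, 111, 92.6 and 101 CPM in DN4 (log2 fold -1.60, SE 0.07, adjusted p = 3.68e-09), and Ccnd3, the D cyclin that thymocytes need at beta-selection, had 279, 220.0, 241 and 232 CPM in DN2/3 and 543, 425, 541 and 475 CPM in DN4 (log2 fold 1.03, SE 0.06, adjusted p = 3.83e-08). Per kb Ccnd2 had 31.3 CPM per kb in DN2/3 and 10.3 CPM per kb in DN4 and Ccnd3 27.7 CPM per kb in DN2/3 and 56.5 CPM per kb in DN4: near equal before, and several times apart after. Their kinase partners did likewise, Cdk6 falling from 162, 182, 179.7 and 205 CPM to 67, 78.3, 82.8 and 80.1 CPM and Cdk4 rising from 556, 457, 472 and 456 CPM to 709, 701, 775 and 717 CPM. Ccnd3 and Cdk4 are named after their values were seen, and Cdk6 by the rule for lists. The E cyclins Ccne1 (log2 fold 2.07, SE 0.08) and Ccne2 (log2 fold 1.55, SE 0.07) and the E2f genes E2f2 (log2 fold 1.41, SE 0.06) and E2f8 (log2 fold 1.81, SE 0.06) rose.

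Among Cdk inhibitors and antiproliferative genes 4 of 14 tested rose and 5 fell. Cdkn1a, which encodes p21, had 53.6, 47.7, 66.1 and 66 CPM in DN2/3 and 3.13, 3.39, 9.31 and 6.39 CPM in DN4, a fall of 11.3-fold (log2 fold -3.49, SE 0.18, adjusted p = 6.77e-08), all DN4 libraries below all DN2/3 libraries. Cdkn2c, which encodes the Cdk4 and Cdk6 inhibitor p18, moved the other way, with 42.8, 30.8, 27.4 and 31 CPM in DN2/3 and 99.6, 71.5, 90.9 and 87.9 CPM in DN4 (log2 fold 1.42, SE 0.09). Btg1 (log2 fold -1.53, SE 0.08), Btg2 (log2 fold -0.80, SE 0.07) and Tob2 (log2 fold -0.76, SE 0.06), of the antiproliferative Btg family, fell, while Tob1 of the same family rose (log2 fold 0.45, SE 0.12), a call lost without pairing (0.41) and with library totals alone (0.28). Of 18 tested p53 targets, Cdkn1a among them, 7 fell and 5 rose, with a median of -0.13. Bbc3, the Puma gene, fell (log2 fold -0.98, SE 0.13), and Fas (log2 fold 1.13, SE 0.16) and Tnfrsf10b (log2 fold 0.73, SE 0.13), which encode death receptors, rose.

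**Figure D3:**
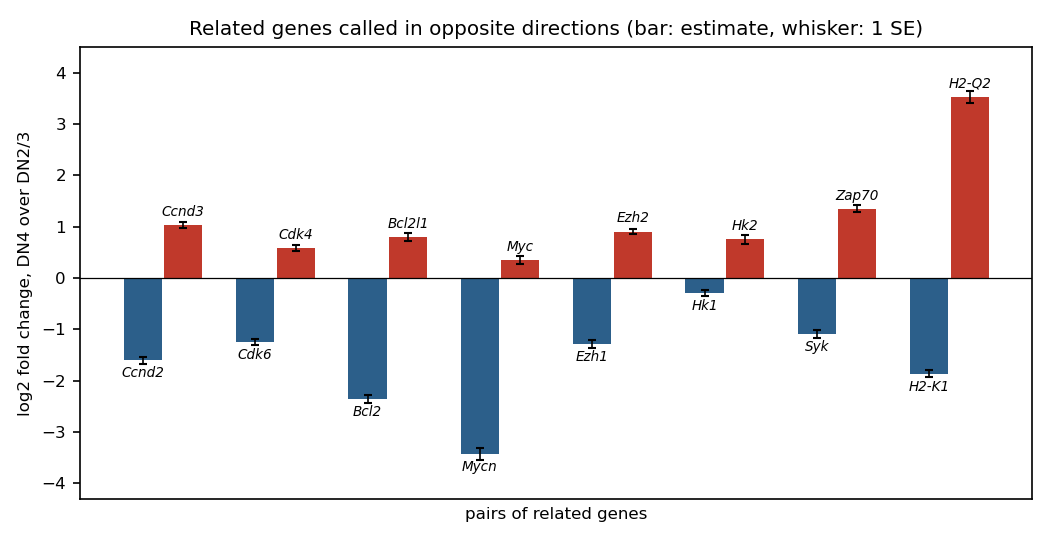
Log2 fold change of DN4 over DN2/3 in 8 pairs of related genes, bars giving the estimate and whiskers 1 SE. In each pair 1 gene was called lower (blue) and the other higher (red), from Mycn at -3.43 to H2-Q2 at 3.53. Only pairs with opposite calls are shown, and pairs that moved together, such as Notch1 and Notch3, are left out.

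Ribosome production rose across its genes. All 30 tested genes of ribosome biogenesis rose, with a median of 0.58. Ncl, which encodes nucleolin, had 1470.3, 1406, 1459 and 1273 CPM in DN2/3 and 3097, 2909, 3087 and 2568 CPM in DN4 (log2 fold 1.05, SE 0.06, adjusted p = 1.71e-08), and Npm1, nucleophosmin, had 1246, 1497, 1494 and 1418 CPM in DN2/3 and 2487, 2518, 2638 and 2607 CPM in DN4 (log2 fold 0.86, SE 0.06). Neither gene's ranges overlapped. Myc, the factor that drives such genes, rose little, with 426, 302, 361 and 354 CPM in DN2/3 and 433, 407, 519 and 476 CPM in DN4 (log2 fold 0.35, SE 0.08, adjusted p = 0.00173) and overlap between the stages, while Mycn had 21.1, 19.3, 18.7 and 18.1 CPM in DN2/3 and 2.41, 1.86, 1.62 and 1.36 CPM in DN4 (log2 fold -3.43, SE 0.12). Of 11 tested genes of the Myc and Max network 3 rose and 5 fell. Mxd3, a Max partner, rose (log2 fold 1.78, SE 0.08) and Mxd4 fell (log2 fold -1.15, SE 0.09). CACGTG, the letters of the E-box that Myc and Max bind, stood in 6 of 26 ribosome biogenesis promoters (23.1%) and in 11.6% of all 10042. The promoter of Wdr43, a nucleolar protein gene whose level was 207, 208, 217 and 209.7 CPM in DN2/3 and 306, 288, 308 and 284 CPM in DN4 (log2 fold 0.49, SE 0.06), holds 1 match after the start, in capitals.
Wdr43 (chr17:71615965-71616264, + strand): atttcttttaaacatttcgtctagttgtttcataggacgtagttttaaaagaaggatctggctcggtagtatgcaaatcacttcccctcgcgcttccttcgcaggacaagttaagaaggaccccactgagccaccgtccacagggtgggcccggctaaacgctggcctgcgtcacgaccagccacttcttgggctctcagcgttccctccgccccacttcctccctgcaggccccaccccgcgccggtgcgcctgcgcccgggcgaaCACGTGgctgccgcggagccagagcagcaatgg

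Metabolic genes rose with them. All 28 tested nuclear genes of the respiratory chain rose, with a median of 0.70: Atp5b, the ATP synthase beta chain, had 1539, 1224, 1347 and 1283 CPM in DN2/3 and 2477, 2219.8, 2619 and 2449 CPM in DN4 (log2 fold 0.86, SE 0.06), and Cox7a2 (log2 fold 1.00, SE 0.06) and Sdhb (log2 fold 0.79, SE 0.06) rose alike. Of 24 genes of glycolysis and nutrient uptake 18 rose and 3 fell, with a median of 0.57. Ldha, lactate dehydrogenase, had 709.6, 543, 608 and 618 CPM in DN2/3 and 1327, 1161, 1482 and 1387 CPM in DN4 (log2 fold 1.11, SE 0.07), and the lactate and pyruvate carrier Slc16a1 (log2 fold 1.15, SE 0.06) and the phosphofructokinase Pfkp (log2 fold 1.37, SE 0.08) also rose. The fallers were Aldoc (log2 fold -2.37, SE 0.13), the pyruvate dehydrogenase kinase Pdk1 (log2 fold -0.81, SE 0.07) and Hk1 (log2 fold -0.30, SE 0.06), whose paralog Hk2 rose (log2 fold 0.75, SE 0.08). Pgk1 rose (log2 fold 0.92, SE 0.06) and shares 51.6% of its read-length stretches with other genes, so its count is uncertain.

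Serine and one-carbon metabolism, which supplies nucleotide synthesis, had 10 of 14 tested genes higher and 2 lower, with a median of 0.85. Psat1, of serine synthesis, had 139, 127, 139 and 141 CPM in DN2/3 and 266, 254, 290.1 and 293 CPM in DN4 (log2 fold 1.01, SE 0.06), with Psph (log2 fold 1.11, SE 0.07), Mthfd2 (log2 fold 1.20, SE 0.08) and Mthfd1l (log2 fold 1.11, SE 0.07) beside it. Cholesterol synthesis was less uniform, with 14 of 23 higher and 3 lower, a count that fell to 8 higher and 5 lower with library totals alone. Insig1 (log2 fold 0.43, SE 0.06) and Cyp51 (log2 fold 0.42, SE 0.06) rose. The amino acid transporter chain Slc3a2, or CD98, rose (log2 fold 0.75, SE 0.07). The transferrin receptor Tfrc had 205, 328, 296 and 289 CPM in DN2/3 and 286, 335, 298 and 349.9 CPM in DN4 (log2 fold 0.20, SE 0.08, adjusted p = 0.04), a rise that overlapped between stages and was lost without replicate 1 (0.11), without replicate 4 (0.17), without pairing (0.18), with upper-quartile scaling (0.11), library totals (0.034) or a filter of 1 CPM (0.18), and in both models of all 28 libraries (0.15 and 0.16).

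Interferon-response genes fell. Of 27 tested 26 fell and 1 rose, with a median of -1.35. Ifih1, the RNA sensor MDA5, had 28.3, 41.5, 41.1 and 36.5 CPM in DN2/3 and 11.9, 13.8, 10.3 and 9.71 CPM in DN4 (log2 fold -1.68, SE 0.11, adjusted p = 1.93e-07), and Oasl2, an oligoadenylate synthetase-like gene, had 16.2, 19.1, 21.4 and 15.5 CPM in DN2/3 and 2.98, 3, 1.93 and 2.17 CPM in DN4 (log2 fold -2.84, SE 0.15). Dhx58 (log2 fold -1.92, SE 0.09), Irf7 (log2 fold -1.49, SE 0.09) and Ifi44 (log2 fold -3.71, SE 0.21) fell, without overlap in any of these 5 genes. The exception was Ifit2, which rose from 21.5, 24.3, 19.8 and 16.5 CPM to 46, 48.7, 34.6 and 34.2 CPM (log2 fold 0.99, SE 0.07). A pair of GAAA with any 2 bases between them, a form of the interferon-stimulated response element, stood in 13 of 20 of the promoters with an entry (65% of them) and in 3.66% of all 10042, and that of Ifih1 is shown with its match in capitals.
Ifih1 (chr2:62646206-62646505, - strand): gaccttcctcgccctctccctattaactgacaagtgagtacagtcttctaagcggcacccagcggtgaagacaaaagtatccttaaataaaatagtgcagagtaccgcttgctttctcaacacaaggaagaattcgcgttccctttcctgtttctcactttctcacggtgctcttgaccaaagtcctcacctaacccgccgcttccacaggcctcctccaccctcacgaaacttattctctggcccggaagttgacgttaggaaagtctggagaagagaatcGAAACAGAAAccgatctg

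Classical class I genes fell as well. Of 14 tested genes of class I presentation 9 fell and 2 rose, with a median of -0.66. H2-K1 (chr17:33996017-34000347), a classical class I heavy chain, had 654, 638, 632 and 708 CPM in DN2/3 and 173, 176, 196 and 176 CPM in DN4 (log2 fold -1.87, SE 0.07, adjusted p = 1.17e-09), the light chain gene B2m had 814, 884, 920.3 and 946 CPM in DN2/3 and 386, 455, 385 and 445 CPM in DN4 (log2 fold -1.09, SE 0.06), and H2-D1 (log2 fold -1.39, SE 0.09) and the class I transactivator Nlrc5 (log2 fold -1.66, SE 0.07) fell too. The nonclassical H2-Q2 (chr17:35342242-35346762) went against them, with 12.6, 4.97, 7.18 and 6.75 CPM in DN2/3 and 105, 67.5, 104 and 74.7 CPM in DN4 (log2 fold 3.53, SE 0.12, adjusted p = 4.24e-09). It shares 5.00% of its read-length stretches with other genes and H2-K1 0.905%. The chaperones Calr (log2 fold 0.35, SE 0.06) and Pdia3 (log2 fold 0.46, SE 0.06), which serve many proteins of the endoplasmic reticulum, rose. The immunoproteasome genes Psmb8, Psmb9 and Psmb10 did not pass.

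Homing receptors fell more than they rose, with 12 of 20 tested lower and 4 higher. The alpha L integrin Itgal fell (log2 fold -0.59, SE 0.06) while its partner Itgb2 rose from 33, 27.6, 23.5 and 21.4 CPM to 81.8, 75.6, 78.3 and 72.2 CPM (log2 fold 1.56, SE 0.08). The chemokine receptors Ccr4 (log2 fold 2.05, SE 0.15) and Ccr7 (log2 fold 1.32, SE 0.16) rose from low levels. The egress receptor S1pr1 had 0.176, 0.199, 0.193 and 0.159 CPM in DN2/3 and 1.4, 2.67, 0.529 and 1.81 CPM in DN4, without overlap, and the oxysterol receptor Gpr183 fell (log2 fold -3.01, SE 0.27).

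Chromatin genes split, with 9 of 24 tested higher and 12 lower. Within polycomb, the methyltransferase Ezh1 fell from 91.4, 94.4, 92.8 and 89.2 CPM to 32.3, 42.8, 36.2 and 39.7 CPM (log2 fold -1.29, SE 0.07) and its paralog Ezh2 rose from 218, 221, 237 and 234 CPM to 413, 406, 441 and 443 CPM (log2 fold 0.90, SE 0.05), with the other core subunits Suz12 (log2 fold 0.88, SE 0.08) and Eed (log2 fold 0.58, SE 0.06). The maintenance DNA methyltransferase Dnmt1 rose (log2 fold 0.93, SE 0.06). Kmt2a (log2 fold -1.13, SE 0.06), Tet2 (log2 fold -1.13, SE 0.08) and the remodeller Smarca4 (log2 fold -0.86, SE 0.06) fell.

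Immediate early genes, which respond within minutes to receptor signals and also to cell handling, fell in 17 of 23 tested and rose in 2, with a median of -0.83. Their summed level was 1601, 1425, 2094 and 960.3 CPM in DN2/3 and 658, 623, 868 and 518 CPM in DN4. Jun had 573, 543, 797 and 355 CPM in DN2/3 and 123, 135, 218 and 88.4 CPM in DN4 (log2 fold -2.03, SE 0.07, adjusted p = 8.40e-10) and Junb 181, 195, 243 and 98.4 CPM in DN2/3 and 42.3, 42.4, 58.6 and 31.2 CPM in DN4, a fall of 4.01-fold. Within a stage the libraries ranged widely, replicate 3 being highest and replicate 4 lowest in both stages for both genes, yet the stages did not overlap. Nr4a1, a reporter of antigen receptor signals, rose with overlap (log2 fold 0.39, SE 0.13, adjusted p = 0.0207), and the call was lost without replicate 2 (0.22), without replicate 4 (0.34), without pairing (0.34), with upper-quartile scaling (0.30) or library totals (0.22), and in both models of all 28 libraries (0.31 and 0.36). The part of sample handling in the other results was not tested.

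**Figure D4:**
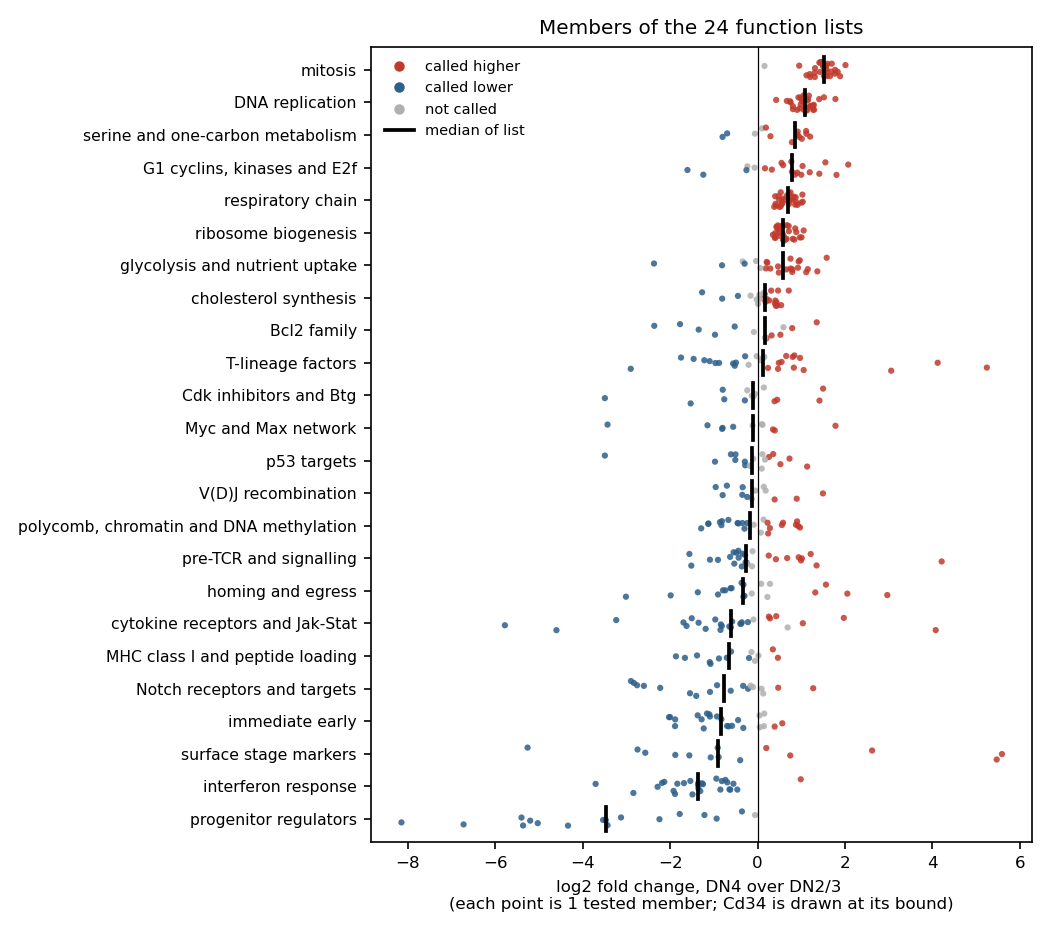
Log2 fold change of DN4 over DN2/3 of every tested member of the 24 function lists, ordered by the median of the list (black bar) and coloured by call. Mitosis and DNA replication sit farthest right, and progenitor regulators and interferon response farthest left. Cd34 is drawn at its bound.

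The DN4 gate, defined by what cells lack, can hold other cells, and so can DN2/3. Marker lists of other lineages were low or lacked their defining genes. Of the B-cell list 6 of 12 genes passed the filter and 4 fell, with a summed level of 43.6 to 46.3 CPM in DN2/3 and 12.2 to 15.7 CPM in DN4, nearly all of it Cd79b (log2 fold -1.77, SE 0.09), and no library had a count of Pax5. The myeloid list summed to 33.7 to 42.3 CPM in DN2/3 and 16.2 to 17.5 CPM in DN4, with 5 of 8 tested lower and Elane, S100a8 and S100a9 without a count. Its largest fall, and the largest of the whole comparison by the naming rule, was Lyz2 (chr10:117277331-117282321), or lysozyme, with 14, 14.3, 21.1 and 15.6 CPM in DN2/3 and 0, 0.058, 0.128 and 0.103 CPM in DN4 (log2 fold -7.78, SE 0.26). The mast cell list summed to 60.9 to 104 CPM in DN2/3 and 2.10 to 5.99 CPM in DN4, nearly all of it the protease Cpa3, with 60.3, 104, 100.1 and 96.2 CPM in DN2/3 and 1.79, 5.53, 1.88 and 3.18 CPM in DN4, while Mcpt4, Fcer1a, Tpsb2 and Cma1 had no count. The erythroid list lacked all 4 globin genes and summed to 6.25 to 7.95 CPM in DN2/3 and 2.47 to 3.41 CPM in DN4.

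Markers of lymphoid neighbours moved in both directions. The NK and innate lymphoid list summed to 210 to 255 CPM in DN2/3 and 379 to 530 CPM in DN4, carried by the granzyme Gzma, with 144, 158, 186 and 154 CPM in DN2/3 and 368, 513, 411 and 480.2 CPM in DN4 (log2 fold 1.46, SE 0.09), against a fall of Nkg7 (log2 fold -3.67, SE 0.18). Tbx21 and Zbtb16, factors of innate-like T cells, rose at low level (log2 fold 1.89, SE 0.21 and log2 fold 2.64, SE 0.46). Of the gamma-delta T list, whose receptor constant genes were not analysed here, 2 of 8 tested rose and 4 fell. Its summed level in DN4 was 474, 830, 491 and 607 CPM, highest in replicate 2, where Etv5 stood at the top of 30.1, 70.0, 35.6 and 39.1 CPM. In DN2/3 it was 843, 913, 792 and 839 CPM. Of the double-positive list 6 of 12 rose and 5 fell, the rises including Cd8a, Cd8b1 and Cd4 given above, with a summed level 1.04 times that of DN2/3. Of the mature T list 3 of 12 rose and 5 fell, and its summed level was 0.296 times that of DN2/3. That sum includes Il7r, whose fall is given above, so it is not a measure of mature cells alone. Among dendritic markers 2 of 7 rose and 2 fell, with Siglech without a count, and of stromal markers 4 of 5 fell, with Krt5 without a count and log2 fold -2.18, SE 0.07 for Epcam, which thymocytes also express. The part of such cells in the other results was not tested.

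The remaining largest falls were spread over cell biology. Ctla2a, a cathepsin inhibitor gene, had 62, 76.8, 81 and 59 CPM in DN2/3 and 0.238, 0.957, 0.626 and 0.556 CPM in DN4 (log2 fold -6.88, SE 0.18). The mucin Muc13 had 23.2, 26.8, 26.1 and 28.1 CPM in DN2/3 and 0.208, 0.377, 0.369 and 0.194 CPM in DN4, the GTPase Rab38 16.8, 16.9, 20.2 and 18.4 CPM in DN2/3 and 0.0893, 0.319, 0.385 and 0.31 CPM in DN4, and the sodium-proton exchanger Slc9a2 5.44, 5.26, 5.42 and 6.21 CPM in DN2/3 and 0, 0.058, 0.0642 and 0.103 CPM in DN4. None of these genes exceeded 1 CPM in any DN4 library. Olfr1507, an olfactory receptor gene, Mdga1, the receptor Il31ra, the cytochrome Cyp2j6 and the signalling regulator Rgs18 fell by 95.6-fold, 76.7-fold, 68.6-fold, 77.7-fold and 57.2-fold. Khdc1a fell 77.8-fold and shares 26.4% of its read-length stretches with other genes.

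To see which changes were particular to wild type, the stage change was compared with that in Lmo2tg thymocytes, which carry the Lmo2 transgene and were sequenced as 5 libraries per stage; the promoter of the transgene is not named in the labels. The model of all 28 libraries called a difference for 3684 of 14371 genes (25.6%), more positive in wild type for 1578 and more negative for 2106. The names of the wild-type and transgenic libraries follow different patterns, so genotype and library series cannot be told apart. The count was 7106 with a replicate block, fell to 1641 without wild-type replicate 3 and to 2175 without wild-type replicate 4. By the mean over each group, Il2ra went from 1512 to 39.6 CPM in wild type and from 779 to 71.1 CPM in Lmo2tg, a difference in stage change of -1.80 (SE 0.42, adjusted p = 0.00444). Bcl2 went from 169 to 32.1 CPM in wild type and from 93.3 to 79.3 CPM in Lmo2tg (difference -2.16, SE 0.35, adjusted p = 0.00026). Cd8a went from 0.718 to 33.6 CPM in wild type and from 46.1 to 343 CPM in Lmo2tg (difference 2.66, SE 0.69, adjusted p = 0.00892), so the transgenic cells rose less in proportion and stood higher at both stages.

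Among function lists, the medians of the following lay nearer 0 in Lmo2tg. For mitosis the medians were 1.48 in wild type and 0.25 in Lmo2tg, with a difference called for 29 of 32 genes, for DNA replication 1.04 and 0.14 (18 of 32), and for the respiratory chain 0.66 and 0.03 (20 of 28). For progenitor regulators they were -3.45 and -0.42 (13 of 19), and for interferon response -1.37 and 0.24 (20 of 27). Some markers of other cells moved with the genotype too. The medians were -0.55 in wild type and 3.61 in Lmo2tg for B-cell markers (6 of 12). They were 0.19 and 1.62 for dendritic markers (3 of 8) and -0.22 and 1.11 for mature T markers (5 of 13). For NK and innate lymphoid markers they were 1.43 and 2.17. There 2 of 11 were called, a share below the 25.6% over all genes. The part of other cells in the difference was not tested. Over all genes the medians were -0.06 and -0.003. Among the 5 largest differences in each direction, Npas2 fell from 7.06 to 0.282 CPM in wild type, where Lmo2tg had 0.0529 and 0.417 CPM (difference -7.78). In Lmo2tg Npas2 was near the floor, with 0 to 0.181 CPM in DN2/3 and 0.144 to 0.692 CPM in DN4. Its stages overlapped there, so the size of this difference is uncertain. Gng2 fell from 16.4 to 2.01 CPM against a rise from 0.843 to 12.8 CPM in Lmo2tg (difference -6.91). The Lmo2tg libraries of this gene varied widely, from 0.328 to 1.63 CPM in DN2/3 and from 1.15 to 37.7 CPM in DN4, and the stages overlapped. Part of the exon bases of Gng2 (20.4%) lie opposite exons on the other strand, and the sources used here do not say whether counting used strand. Other genes named above share this limit, such as Nrarp (79.4%), Cdk4 (19.7%), Bid (17.7%) and Ccne2 (17.4%). Ubqlnl, Clec4e and Ctla2b had close to no counts in wild-type DN4, so their fitted differences are not bounds. Ctla2b also shares 58.5% of its read-length stretches with other genes, so its count is uncertain. H2-Q2 rose from 7.91 to 86.5 CPM in wild type, while its change from 82.8 CPM in Lmo2tg did not pass (log2 fold 0.58, adjusted p = 0.209, difference 2.87), and Arsi, Pdlim4, H2-Q1 and Cnnm1 were the others with a more positive change in wild type.

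**Figure D5:**
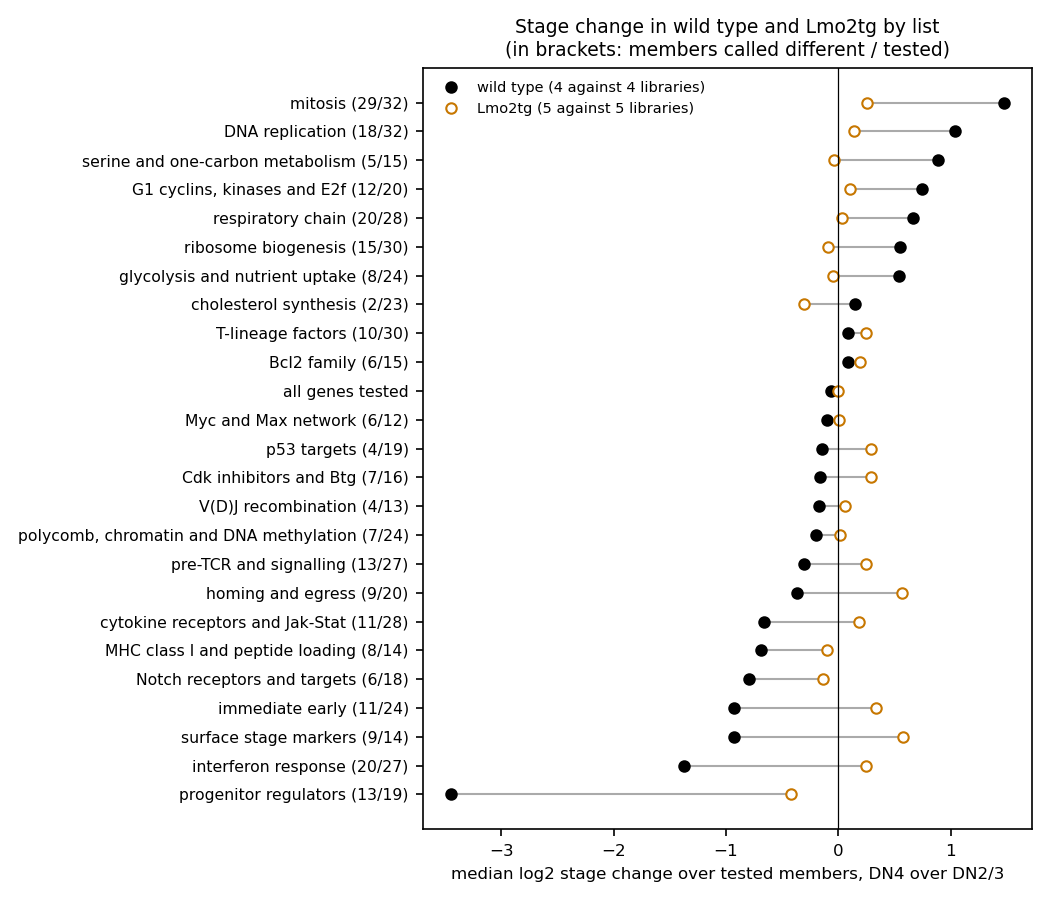
Median log2 stage change (DN4 over DN2/3) of the tested members of each function list in wild type (filled) and Lmo2tg (open), with the number of members whose stage change differed by the test and the number tested in brackets. For mitosis the medians are 1.48 and 0.25, and for progenitor regulators -3.45 and -0.42.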

How the data were processed

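RNA of sorted thymocytes was sequenced as TruSeq libraries, and the authors deposited whole-number counts per gene symbol. Per the submitters' processing notes STAR 2.5.2a, featureCounts 1.4.6-p3 and mm10 were used; the annotation and the strand and multi-mapping settings were not given in the sources used here. Small counts (1 to 20) were even in 73.2 to 85.0% of cases, against about 50% for large ones, so some fragments may be counted as 2.

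The 8 wild-type libraries were fitted with edgeR 4.0.16 (quasi-likelihood test, TMM, robust, filterByExpr, Benjamini-Hochberg adjustment over 13371 genes) with stage and replicate number. Numbers come from the labels, and same-numbered libraries deviated together (r = 0.238, 0.347, 0.183 and 0.389). The Lmo2tg difference used all 28 libraries as 6 groups without pairing. On simulated counts for the wild-type comparison (13227 genes), 88.2% of changes of 0.5 and 98.7% of changes of 1 (log2) were recovered, with 4.02% false calls. These changes were set in 68 and 76 genes, equally likely up or down, with a spread fixed in advance. In the data most genes were called, so these rates may not hold there. Named genes were the 12 largest rises and falls with at least 5 CPM in the higher stage, up to 4 rises and 4 falls per list, fixed genes, and 5 differences each way. The largest rises and falls were taken from called genes without overlap that moved the same way in all 4 pairs. Predicted or unnamed symbols and receptor segments were left out. The genes and lists were chosen with earlier results of these data known. Genes named in addition after their values were seen include Cd34, Ccnd3, Cdk4, Lfng, Hk2, Mki67, Cdk1, Wdr43, Ifih1, Hoxa9, Spi1, Tal1 and Cish. Cdk6, Zap70, Itgb2, Bid, Hk1, Ezh1 and Ezh2 were also picked then, but the rule for lists already named them. Positions are from GENCODE M21, with 12843 tested genes matched. Some items are not reported here. Alternatives were other scalings, filters, tools and left-out replicates.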

Additional observations from a re-analysis of the deposited data

Results flagged for a closer look

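In 28 of 370 groups of 4 libraries (1 gene in 1 stage), 1 library lay far from the other 3 by Dixon's test, and chance flags about 1 in 20 groups. DN2/3 replicate 1 was that library in 12 of them. DN2/3 replicate 1 was above the other libraries of its stage for Cd8b1 (4.14 CPM, the others 2.24 to 2.47), Cd2 (2.33 CPM, the others 0.744 to 0.998), Ikzf3 (21.3 CPM, the others 14.5 to 15.2), Bax (70.5 CPM, the others 55 to 55.8), Ccne1 (26.2 CPM, the others 19.5 to 19.9), Sdhb (141 CPM, the others 122 to 125) and Cdk4 (556 CPM, the others 456 to 472). DN2/3 replicate 1 was below the other libraries of its stage for Dntt (2362 CPM, the others 2705 to 2764), Il17rb (256 CPM, the others 303 to 313), Ifi44 (3.53 CPM, the others 7.3 to 7.83), Suz12 (130.5 CPM, the others 169 to 177) and Cpa3 (60.3 CPM, the others 96.2 to 104). DN2/3 replicate 2 was above the other libraries of its stage for Zbtb7b (0.0331 CPM, the others 0 to 0). DN2/3 replicate 2 was below the other libraries of its stage for Ccna2 (80.4 CPM, the others 96.1 to 98.6) and Psat1 (127 CPM, the others 139 to 141). DN2/3 replicate 3 was above the other libraries of its stage for Gimap3 (0.465 CPM, the others 0.0993 to 0.147). DN2/3 replicate 4 was above the other libraries of its stage for Kmt2a (932 CPM, the others 668 to 685). DN2/3 replicate 4 was below the other libraries of its stage for Xrcc5 (58.2 CPM, the others 65.5 to 66.8). DN4 replicate 1 was above the other libraries of its stage for Cd4 (12.2 CPM, the others 4.13 to 4.96), Bcl2a1d (0.268 CPM, the others 0.029 to 0.0517), Tubb2a (115 CPM, the others 67.7 to 70.0) and Tubb2b (107.3 CPM, the others 54.4 to 60.8). DN4 replicate 2 was above the other libraries of its stage for Ccr4 (11.1 CPM, the others 7.81 to 8.22) and Gpr183 (0.609 CPM, the others 0.155 to 0.208). DN4 replicate 3 was above the other libraries of its stage for H2-K1 (196 CPM, the others 173 to 176). DN4 replicate 3 was below the other libraries of its stage for Mxd4 (17.7 CPM, the others 23.5 to 23.8). DN4 replicate 4 was above the other libraries of its stage for Rag1 (632 CPM, the others 551 to 564) and Ccne2 (54.1 CPM, the others 40.6 to 42.5).

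The log2 stage change differed between wild type and Lmo2tg by the test of the difference for the 5 genes named in each direction. The difference (wild type minus Lmo2tg) was -8.37 for Ubqlnl, -7.78 for Npas2, -7.73 for Clec4e, -7.20 for Ctla2b and -6.91 for Gng2. Ubqlnl, Clec4e and Ctla2b had no or nearly no counts in wild-type DN4 (means of 0, 0.0127 and 0.0146 CPM), so their fitted values depend on the prior count and are not bounds. Npas2 was near the floor in Lmo2tg DN2/3 (0 to 0.181 CPM), so the size of its difference is uncertain. Ctla2b shares 58.5% of its read-length stretches with other genes, so its count is uncertain. In the other direction it was 3.62 for Arsi, 3.37 for Pdlim4, 3.11 for H2-Q1, 2.87 for H2-Q2 and 2.72 for Cnnm1. The call for Cnnm1 was lost when any 1 wild-type replicate was left out (2.69 to 2.92). Genotype and library series cannot be told apart.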

How the results depend on the processing

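The direction of the stage change held for the 238 named genes under every alternative run, except that Gata3 was reversed (-0.013) with library totals alone; the cause was not tested. Of these genes 51 lost their call under at least 1 alternative (114 of 3793 values). A test against a fold of 1.5 called 1229 genes higher and 2266 lower, and the model of all 28 libraries without pairing called 3035 higher. Without the replicate block, the paired fit's 4591 higher and 4722 lower became 4165 and 4277, of which 8412 were called the same way in both; DESeq2 with the replicate block gave 4567 and 4682. Leaving out 1 pair gave 4033 to 4733 higher and 4146 to 4967 lower, or 610.0 to 729 and 1847 to 2029 over 2-fold. The difference from Lmo2tg rose to 7106 genes with a replicate block, and ranged from 1641 to 3035 when 1 wild-type replicate was left out. That block pairs the stages within each genotype by replicate number alone.

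With library totals alone, 5 glycolysis genes fell, 8 cholesterol genes rose and 5 fell, 2 mast cell markers fell and 1 dendritic marker rose. Immediate early genes had 1 higher, in place of 2, under upper-quartile scaling, under library totals, without the replicate block, and without replicates 2 or 4. Dendritic markers likewise had 1 higher without the replicate block and without replicates 3 or 4. Without replicate 3, 2 B-cell markers fell, and without replicate 1, 1 myeloid marker rose and 2 NK markers fell (0 myeloid markers rose without any other replicate). The cause of these moves was not tested. Genes with few counts limit what can be seen: Lmo2 had 22 counts in DN4, Zbtb7b 2 in DN2/3 and Bcl2a1d 26 in DN4.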

Other observations

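Families grouped by symbol after the values were seen, and so without a test of the family, are described here; some share members with the function lists, and some moved in both directions. All 10 tested guanylate-binding protein genes, interferon-inducible GTPases that guard against intracellular microbes, fell, 9 of them over 2-fold, with a median log2 fold of -2.17. Gbp4 had 369, 531, 469 and 497 CPM in DN2/3 and 101, 128, 77 and 88.5 CPM in DN4 and Gbp8 had 355, 461, 349.5 and 411 CPM in DN2/3 and 79.7, 93.6, 50.7 and 67.2 CPM in DN4, and no library of 1 stage reached the range of the other. Gbp11 fell 25.6-fold. Gbp6 fell (log2 fold -2.62, SE 0.12) and shares 64.4% of its read-length stretches with other genes. The integrin genes fell in 11 of 21 tested, among them Itgb4, with 154, 146, 149 and 156 CPM in DN2/3 and 7.82, 10.4, 7.97 and 7.26 CPM in DN4, and the ADAM proteases in 13 of 20. Among the Gimap GTPases 5 of 8 fell and 2 rose, Gimap3 11.3-fold beside Gimap4.

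On the rising side, 76 of 77 genes of mitochondrial ribosomal proteins, 34 of 38 proteasome subunits and 16 of 17 cytosolic aminoacyl-tRNA synthetases rose and none fell. The median log2 folds were 0.58, 0.62 and 0.62, and 69, 33 and 15 were higher with library totals alone, where 1, 3 and 0 were lower. Psmc1, a proteasome ATPase, had 171, 139.6, 156 and 143 CPM in DN2/3 and 336, 303, 342 and 296 CPM in DN4. Cytosolic ribosomal protein genes rose in 64 of 75 and fell in 2, with a median of 0.39 and with 51 higher under library totals. Rpl3l, a form best known from muscle, was 1 of the 2 that fell (log2 fold -3.21, SE 0.26). Of 52 canonical histone genes 31 rose, all of them over 2-fold, and 4 fell. Among tubulins 8 of 13 rose. Tubb2a (log2 fold 2.09, SE 0.07) and Tubb2b (log2 fold 1.95, SE 0.07) share 36.7% and 25.8% of their read-length stretches with other genes. Kinesins rose in 21 of 33 and fell in 8, with Kif17, a kinesin best known from neurons, lowest (log2 fold -3.54, SE 0.11).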
